A study of Mus musculus with 4 samples.

Results

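The miR-101 family was followed from MIN6 cells, a mouse insulinoma line that secretes insulin, into the exosomes recovered from their medium. Its members were chosen by name and are the 5 mature strands mmu-miR-101a-3p, mmu-miR-101a-5p, mmu-miR-101b-3p, mmu-miR-101b-5p and mmu-miR-101c, out of 1915 mature mouse miRNAs in the count table. All 5 had at least 1 count in the cells, and 3 of them were among the 438 miRNAs with enough counts to be tested. The cells were unmodified MIN6-cells, grown in serum depleted of exosomes, and the exosomes were pelleted from conditioned medium of the same line by ultracentrifugation after a filtration step. Small RNA of both was sequenced in 2 libraries per group, all from 1 insulinoma line and without any treatment. Cell and exosome libraries were checked on different instruments before sequencing, and differences of handling and of group cannot be told apart. Nothing in the labels states that the 2 libraries of a group came from separate cultures, so p-values measure the spread between these libraries, which may be technical.

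A miRNA is cut from one arm of a hairpin precursor, is loaded into an Argonaute protein and recognises its targets mainly through the seed, bases 2 to 8 from its 5′ end. One arm usually persists as the guide strand, while the opposite arm is degraded. miR-101-3p, the guide strand of this family, is known for repressing Ezh2, the methyltransferase of Polycomb repressive complex 2, and is lost in several cancers. In beta cells miR-101a has been studied as one of the miRNAs that respond to inflammatory cytokines.

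The mature sequences, as deposited and with the seed in capitals, show how close the 3p strands are and where they begin.
mmu-miR-101a-3p: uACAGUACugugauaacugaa
mmu-miR-101b-3p: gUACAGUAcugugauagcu
mmu-miR-101c: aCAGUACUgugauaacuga
mmu-miR-101a-5p: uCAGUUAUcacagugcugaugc
mmu-miR-101b-5p: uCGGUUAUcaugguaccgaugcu
All 5 were identical to the RefSeq entries on GRCm38.p6. The first 15 bases of miR-101a-3p are bases 2 to 16 of miR-101b-3p, so that the annotated miR-101b-3p begins 1 base earlier and its seed is displaced by 1 base. miR-101c is contained whole in miR-101a-3p, whose bases 2 to 20 are the 19 bases of miR-101c. By their annotated ends the 3 strands therefore carry 3 different seeds. Among the 1851 listed miRNAs for which a sequence was at hand, no other miRNA had the same 7-base seed as any of the 5 members. miR-144-3p, an erythroid miRNA, came near, with its first 7 bases equal to those of miR-101a-3p and the seed ACAGUAU.

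The hairpins are shown here with the annotated mature strands in capitals, because the position of miR-101c within mir-101a bears on its counts.
mmu-mir-101a: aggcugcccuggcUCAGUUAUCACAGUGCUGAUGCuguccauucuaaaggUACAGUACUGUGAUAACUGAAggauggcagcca
mmu-mir-101b: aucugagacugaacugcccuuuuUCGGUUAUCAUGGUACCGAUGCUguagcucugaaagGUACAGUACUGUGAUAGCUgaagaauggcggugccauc
mmu-mir-101c: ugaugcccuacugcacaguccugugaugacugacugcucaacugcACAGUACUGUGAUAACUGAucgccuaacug
On GRCm38, Mir101a lies on the minus strand at chr4:101346945-101347027 and overlaps an exon of E130102H24Rik, a lincRNA of the same strand. Mir101b lies on the plus strand at chr19:29135279-29135375, in an intron of Rcl1, a protein-coding gene of the same strand with a role in ribosomal RNA processing. Mir101c lies on the minus strand at chr9:3038669-3038743 and overlaps no other annotated gene. Of 895 hairpins in the files, the letters of miR-101a-3p occurred only in mir-101a and those of miR-101b-3p only in mir-101b, whereas those of miR-101c occurred in mir-101a and mir-101c. Among annotated transcripts of other genes, no letters of the members were found outside E130102H24Rik, which spans Mir101a.

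Depth differed widely, with 2930217 and 2564068 mature counts in the cells but only 47447 and 31409 in the exosomes. The floor of detection was set at 3 counts, which are worth 1.02 and 1.17 RPM (counts scaled to the library's mature total, the deposited unit) in the cells and 63.2 and 95.5 RPM in the exosomes. Intervals and floors cover counting error only. The exosome libraries resembled each other less than the cell libraries did, with a Pearson correlation across the tested miRNAs of 0.775 against 0.986 on the log2 scale of normalised counts plus 1. The exosome libraries also held miRNAs of cell types other than the beta cell. Of 10 marker miRNAs of erythroid, myeloid, liver, mesenchymal and endothelial cells, 9 were tested and all 9 were higher in exosomes. This held with TMM, where 105 of all 438 tested miRNAs were higher, and with scaling by library size alone, where 137 were. The 10 together took 35.2 and 44.1 RPM in the cells and 10243 and 5508 RPM in the exosomes, and miR-451a, miR-144-3p and miR-142a-3p had no count in either cell library. Of 4 beta-cell markers, 3 were lower in exosomes with TMM (miR-375-3p, miR-7a-5p and miR-200a-3p) and miR-141-3p did not pass. On that scale 29.5% of all tested miRNAs were lower. Scaled by library size alone, only miR-200a-3p of the 4 was lower, with 2 and 0 exosome counts, where 6.85% of all tested miRNAs were. The TMM call of miR-375-3p was lost there (edgeR, adjusted p = 0.892). Its exosome counts came to 729, against 749 at its mean cell share. The 4 together took 36554 and 36681 RPM in the cells and 19221 and 8087 RPM in the exosomes, of which miR-375-3p held between 7068 and 10686 RPM in every library. The part of both marker groups in the miR-101 results was not tested.

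In the cells the guide strands were clearly present and their partner strands were scarce. miR-101a-3p had 666 and 610 counts in the 2 cell libraries, which is 227 and 238 RPM, and ranked 127 by mean RPM among all listed miRNAs. miR-101b-3p had 455 and 364 counts, or 155 and 142 RPM, and ranked 143. The cell level of miR-101a-3p (232.6 RPM ± 7.51, SD, n = 2) was above that of miR-101b-3p (148.6 RPM ± 9.42, SD, n = 2) in both libraries, and their values did not overlap. miR-101a-3p made up 59.4% (95% Wilson interval 56.5 to 62.2) and 62.6% (59.5 to 65.6) of the reads of both guide strands together. The paralogues thus stood in nearly the same proportion in both cell libraries, with overlapping intervals.

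The 5p strands of both hairpins were near the limit of detection even in the cells. miR-101a-5p had 8 and 9 counts there, or 2.73 and 3.51 RPM. miR-101b-5p had 3 counts in cell replicate 1 and 0 in replicate 2, which is at or under the floor. The 3p strand therefore held 98.8% (95% Wilson interval 97.7 to 99.4) and 98.5% (97.3 to 99.2) of the reads listed at miR-101a-3p and miR-101a-5p together. For mir-101b the 3p share was 99.3% (98.1 to 99.8) and 100% (99.0 to 100). Reads on neither annotated arm were few, with 1 and 4 on mir-101a and 5 and 6 on mir-101b.

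miR-101c had almost the counts of miR-101a-3p, and the hairpin tables placed nearly all of them on mir-101a. It was listed with 657 and 597 counts in the cells, which is 98.6% and 97.9% of the counts of miR-101a-3p. On the mir-101a hairpin these 657 and 597 reads stood beside the 666 and 610 of miR-101a-3p, and the hairpin totals of 1332 and 1220 were the sum of both with the remaining reads. On its own hairpin mir-101c only 1 and 7 reads were given to miR-101c, with a hairpin total of 1 and 8. In the rest of the table, all 17 pairs of counted miRNAs with identical sequences held identical counts in all 4 libraries, that is, the table lists such reads at each of the miRNAs. In 13 pairs 1 counted sequence lies within the other, miR-101c in miR-101a-3p among them. There the summed counts of the shorter were between 98.3% and 101.1% of those of the longer, although some of these pairs hold few counts. For miR-101c and miR-101a-3p single reads are not given, and the number of reads that belong to miR-101c alone cannot be told. The counts of miR-101c are therefore not taken as an independent measurement beside those of miR-101a-3p.

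**Figure D1:**
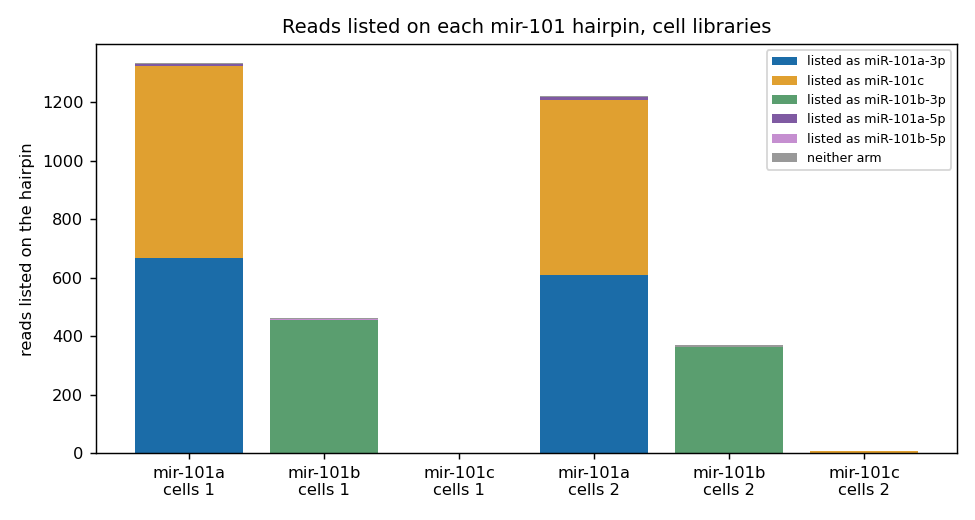
Reads listed on the mir-101a, mir-101b and mir-101c hairpins in the 2 cell libraries, stacked by the mature miRNA they were listed at (vertical axis, reads). The mir-101a bars of 1332 and 1220 reads consist of nearly equal parts of miR-101a-3p and miR-101c, while mir-101c itself reaches only 1 and 8 reads.

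In the exosomes almost no read of the family was recorded. miR-101a-3p had 1 count in exosome replicate 1 and 0 in replicate 2. miR-101b-3p, miR-101a-5p and miR-101b-5p had no count in either exosome library. The only other entry was 1 count of miR-101c in replicate 1, listed on the mir-101a hairpin, where the single count of miR-101a-3p also lay. For the 3p strands both exosome libraries were below both cell libraries, on the RPM scale and after TMM normalisation, whereas the 5p strands could not be compared at this depth. Fewer vesicles carrying a strand and less of it per vesicle cannot be told apart in these bulk libraries.

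**Figure D2:**
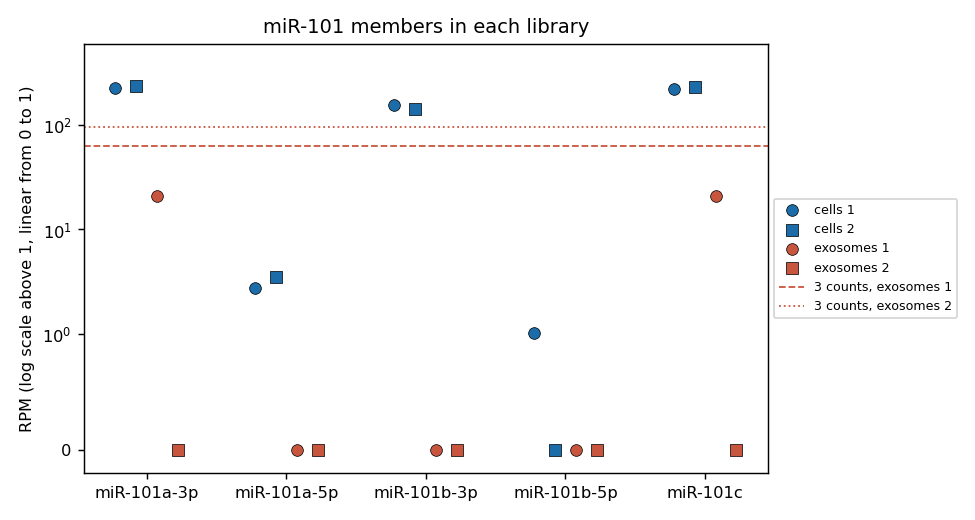
RPM of the 5 members in each of the 4 libraries (vertical axis on a log scale above 1 and linear below), with dashed and dotted lines at the RPM that 3 counts are worth in the exosome libraries. The 3p strands lie between 142 and 238 RPM in cells, above both lines, and at 21.1 RPM or 0 in exosomes, while the cell values of the 5p strands lie far below both lines.

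Because the exosome libraries were shallow, each count was set against the count that the mean cell share of the member would give. At an unchanged share miR-101a-3p would have 11.0 counts in exosome replicate 1 and 7.31 in replicate 2, where 1 (exact 95% Poisson interval 0.0253 to 5.57) and 0 (0 to 3.69) were recorded. Over both libraries 1 count stood against 18.3, a ratio of 0.0545 with a counting interval of 0.00138 to 0.304. For miR-101b-3p the corresponding counts were 7.05 and 4.67, or 11.7 over both, against none recorded. With the floor of 3 counts over the group, miR-101b-3p was at least 3.91-fold lower in its share of the exosome counts. The 95% Poisson interval of its 0 counts is wider than that floor and reaches a ratio of 0.315. miR-101c would have 10.8 and 7.18 counts, against 1 and 0.

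For the 5p strands the same calculation showed that nothing could have been seen. An unchanged share would give miR-101a-5p 0.148 counts in exosome replicate 1 and 0.0980 in replicate 2. miR-101b-5p would have 0.0243 and 0.0161 counts. Their 0 counts therefore fall below what the depth could show. The floor of 3 counts is worth 63.2 and 95.5 RPM in the exosome libraries, above their cell levels. No fold is given for either.

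The scale of the comparison changed these numbers but not their direction. TMM, which scales the libraries so that the bulk of the miRNAs between the extremes is balanced, gave the exosome libraries factors of 1.79 and 1.37 and the cell libraries 0.663 and 0.614. On that scale an unchanged level would give miR-101a-3p 31.1 and 15.7 counts in the exosome libraries and miR-101b-3p 29.8 over both. The 1 count of miR-101a-3p over both libraries then corresponded to a ratio of 0.0214 (counting interval 0.000541 to 0.119). Against the floor of 3 counts miR-101b-3p was at least 9.94-fold lower, and its counting interval reached a ratio of 0.124. Over the 438 tested miRNAs the log2 fold change had a median of -0.74 with TMM and of 0.60 with library size alone, and each fold stands relative to that shift.

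**Figure D3:**
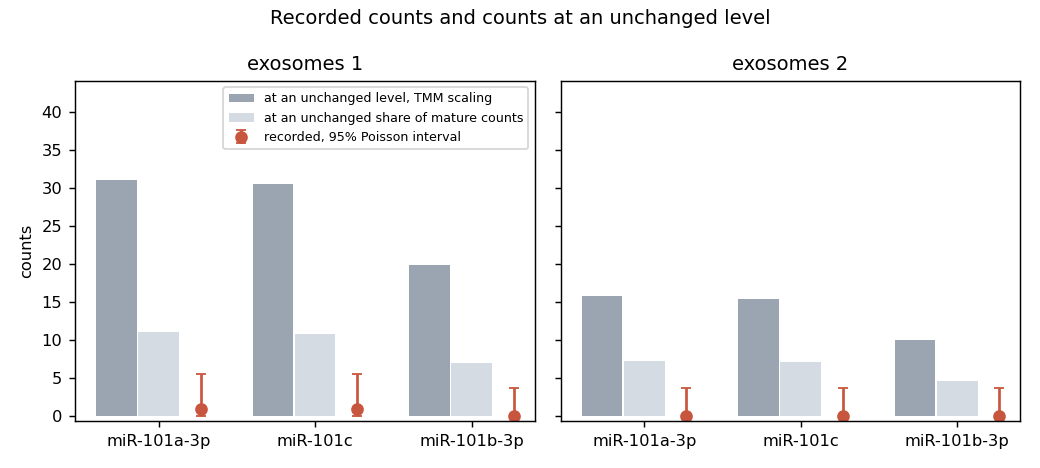
Counts of the 3p strands in the 2 exosome libraries (vertical axis, counts), with dark bars for the count at an unchanged level under TMM, pale bars for the count at an unchanged share and points with 95% Poisson intervals for the recorded counts. The recorded counts of 1 or 0 have intervals that end at 5.57 or 3.69, below all bars of both scales.

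In the test across all miRNAs the 3 tested members were lower in exosomes, where 129 of 438 tested miRNAs (29.5%) were lower and 105 were higher. They passed the count filter through their cell counts, that is, through the group in which they are high. For miR-101a-3p the fitted change was -5.55 on the log2 scale with a standard error of 0.75 (edgeR quasi-likelihood test, Benjamini-Hochberg adjusted p = 0.00902). Its exosome counts of 1 and 0 lie under the floor of 3 counts, so the size of this fold is uncertain. Against that floor miR-101a-3p was at least 6.11-fold lower in its share and 15.6-fold lower with TMM. miR-101b-3p passed as well (edgeR, adjusted p = 0.0120), but with no count in exosomes its fold is given only as the bound above. The change of miR-101c, of -5.52 on the log2 scale (edgeR, adjusted p = 0.00902), may rest on the same reads as that of miR-101a-3p, which the files cannot tell. Set against the floor miR-101c was 6.01-fold lower in its share and 15.3-fold lower with TMM. Its counting intervals reach ratios of 0.309 and 0.121. With the reads of miR-101a-3p and miR-101b-3p summed into 1 value, of 1121 and 974 counts in cells and 1 and 0 in exosomes, the fitted change was -6.26 on the log2 scale with a standard error of 0.76 (edgeR, adjusted p = 0.00691). That sum was added after seeing the data. Being under the floor in exosomes, it too has a fold of uncertain size, and its counting interval reaches ratios of 0.185 in share and 0.0727 with TMM. The planned sum, with miR-101c included, gave -5.98 on the log2 scale (edgeR, adjusted p = 0.00815).

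Scaling by library size alone left only 30 of the 438 miRNAs lower (6.85%) and turned the balance of all calls from 44.9% higher under TMM to 82.0% higher. All 3 tested members were among those 30, although miR-101c is not taken as independent of miR-101a-3p. There edgeR gave an adjusted p of 0.0218 for miR-101a-3p, 0.0244 for miR-101b-3p and 0.0222 for miR-101c. The normalised values of both exosome libraries lay below those of both cell libraries in these 3 members, as they did in 226 of the 438 tested miRNAs (51.6%). By its single count the fitted value of miR-101a-3p rests on exosome replicate 1. With exosome replicate 2 as the only exosome library, 0 counts stood against 7.31 at an unchanged share. Against the floor of 3 counts that is at least 2.44-fold lower. The bound of miR-101b-3p was 2.35-fold with exosome replicate 1 alone and 1.56-fold with replicate 2 alone. With TMM these bounds were 6.60-fold and 3.34-fold, against the 9.94-fold over both libraries.

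Among miRNAs at or above the cell level of miR-101b-3p, few had almost no exosome reads, and the guide strands were among them. Of the 143 listed miRNAs whose mean RPM in cells was at least that of miR-101b-3p, 2 (1.40%) had no count in either exosome library, miR-101b-3p itself and miR-16-2-3p. Another 4 had a single count, which were miR-101a-3p, miR-101c, miR-141-5p and miR-29b-1-5p. The ratio of recorded counts to those at an unchanged share had a median of 0.439 over the 143 miRNAs, against 0.0545 for miR-101a-3p and 0 for miR-101b-3p. The set begins at the level of miR-101b-3p, so all others in it would have at least as many counts at an unchanged share. It leaves out the miRNAs just below that level, some of which also had almost no exosome reads. miR-148a-3p had 394 and 309 counts in cells and 1 and 0 in exosomes, and miR-325-5p had 345 and 324 against none. Others there were well counted, such as miR-320-3p with 328 and 252 in cells and 85 and 33 in exosomes. Over all 438 tested miRNAs, 38 had no exosome count, miR-101b-3p among them. By that ratio miR-101a-3p ranked 39 from the lowest. These are descriptions of the members' place among miRNAs of equal or higher abundance and among all tested miRNAs, and carry no test.

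**Figure D4:**
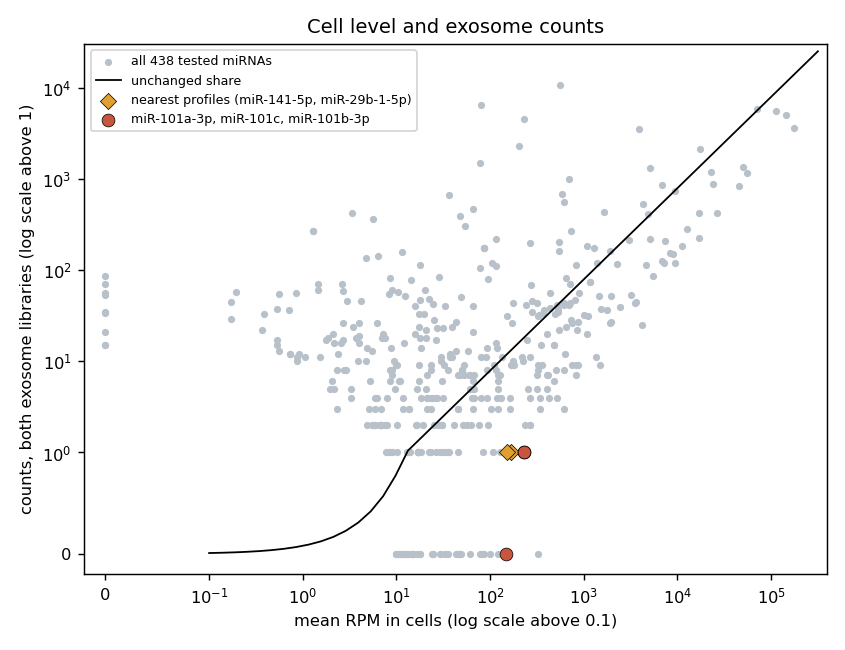
Mean RPM in cells (horizontal axis, log scale above 0.1) against the counts of both exosome libraries together (vertical axis, log scale above 1) for the 438 tested miRNAs, with a line for an unchanged share. The 3 miR-101 strands lie at 1 or 0 counts, below the line at 18.3 and 11.7 counts for miR-101a-3p and miR-101b-3p.

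By the distance of log2 normalised counts over the 4 libraries, the tested miRNA nearest to miR-101a-3p was miR-101c, at 0.0367, whose sequence lies within that of miR-101a-3p. Next came miR-141-5p at 0.678 and miR-29b-1-5p at 0.862, each the opposite arm of an annotated 3p miRNA. miR-141-5p had 483 and 432 counts in cells and 1 and 0 in exosomes. miR-29b-1-5p had 436 and 399 counts in cells and likewise 1 and 0 in exosomes.

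Among 4 other miRNAs known to repress Ezh2, all tested, 2 were lower in exosomes with TMM, 1 was higher and 1 did not pass. Of all 438 tested miRNAs, 29.5% were lower and 105 were higher on that scale. With library size alone none of the 4 was lower and 1 was higher, where 6.85% of the 438 tested miRNAs were lower and 137 were higher. With TMM 3 of the 4 had a negative log2 fold change, with a median log2 fold change of -0.84 against -0.74 for all tested miRNAs. miR-26a-5p, from the introns of Ctdsp genes, had 2172 and 1786 counts in cells and 25 and 19 in exosomes, where an unchanged share would give 56.7 over both. It was lower by the test with TMM (log2 fold change -1.63, edgeR adjusted p = 0.0312), and with library size alone it did not pass (adjusted p = 0.561). miR-26b-5p, with 2216 and 1914 counts in cells and 20 and 6 in exosomes, was lower with TMM (log2 fold change -2.61, edgeR adjusted p = 0.0142) but not with library size alone (adjusted p = 0.138). miR-138-5p had 58 and 57 counts in cells and 2 in each exosome library, and did not pass (edgeR, adjusted p = 0.937). miR-214-3p, which is typical of mesenchymal cells, had 0 and 2 counts in cells and 22 and 11 in exosomes, and was at least 766-fold higher in its share, against the floor of 3 counts over both cell libraries. Its rise stood beside that of the mesenchymal markers in the same libraries, and the part of such cells in it was not tested.

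Among 7 miRNAs linked, like miR-101a, with beta cells exposed to cytokines, 5 were lower in exosomes, none was higher and 2 did not pass, where 29.5% of all tested miRNAs were lower. Their median log2 fold change was -3.21, against -0.74 over all tested miRNAs. With library size alone only miR-29c-3p passed, where 6.85% of all tested miRNAs were lower, and the median was -1.83 against 0.60. miR-30b-5p, which has been studied together with miR-101a in cytokine-exposed beta cells, had 1117 and 1113 counts in cells and 7 and 0 in exosomes, against 32.1 at an unchanged share. It was lower with TMM (log2 fold change -3.68, edgeR adjusted p = 0.0349). miR-29c-3p had 2055 and 2089 counts in cells and 6 and 3 in exosomes, and passed with TMM (log2 fold change -4.08, edgeR adjusted p = 0.00701) and with library size alone (edgeR adjusted p = 0.0165). miR-146a-5p, a miRNA induced by NF-kappaB, had 1996 and 1534 counts in cells and 68 and 14 in exosomes, where an unchanged share would give 30.4 and 20.1. The exosome libraries thus lay on opposite sides of that share, and with TMM it did not pass (log2 fold change -0.80, edgeR adjusted p = 0.252). The remaining members were miR-29a-3p (log2 fold change -3.21), miR-29b-3p (-3.28) and miR-21a-5p (-2.12), which were lower with TMM, and miR-34a-5p, which did not pass and had 4 exosome counts against 2.15 at an unchanged share.

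**Figure D5:**
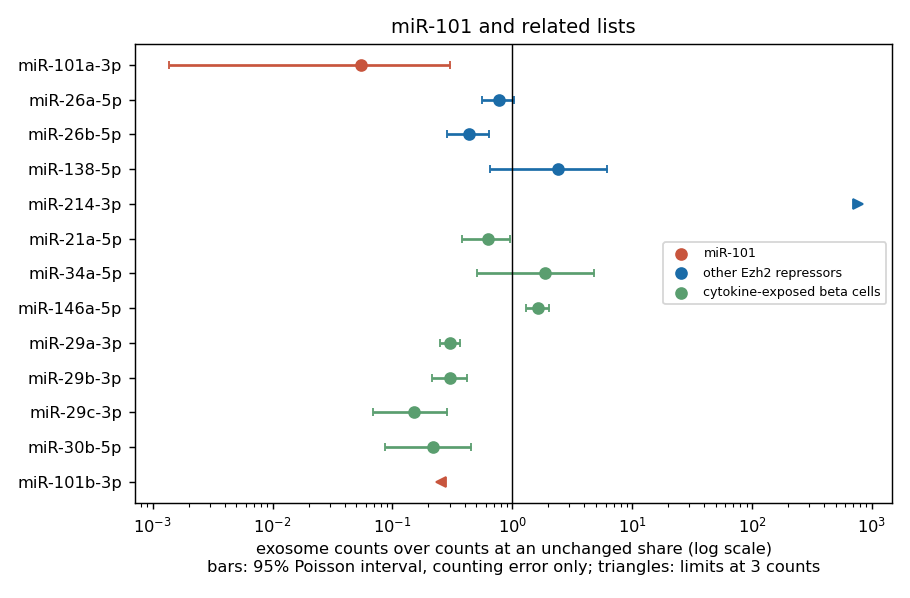
Counts of both exosome libraries over the counts at an unchanged share (horizontal axis, log scale) for miR-101a-3p, miR-101b-3p, the 4 other Ezh2 repressors and the 7 miRNAs of cytokine-exposed beta cells, with 95% Poisson intervals and with triangles for limits at 3 counts. miR-101a-3p stands at 0.0545 with an interval up to 0.304, miR-29c-3p, the lowest of the others, at 0.151, and miR-214-3p at a lower limit of 766.

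The near-seed miRNA miR-144-3p ran the other way from miR-101a-3p, with no count in the cells and 4 and 0 counts in the exosomes. It had too few counts to be tested, and it is among the erythroid markers named above.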

How the data were processed

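Small RNA libraries of MIN6 cells and MIN6-derived exosomes, 2 of each, had been prepared with a SMARTer smRNA-Seq kit, which polyadenylates the RNA, and sequenced on an Illumina instrument. The authors trimmed adapters and dropped reads that matched rRNA. What was left was aligned to the genome and classified with miRBase v21 and with RNAcentral v10.0. They deposited whole read counts per mature miRNA and per hairpin. The deposited RPM values are each count per 1e+06 mature counts of the library. Per the submitters' notes the build was mm10, and cutadapt, Bowtie, STAR, RSEM, Bowtie2 and edgeR were used in roles that are not given. The deposited arm columns can hold several joined values, named in other columns, and were split by those names.

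Groups and replicate numbers came from the sample titles. Of 1101 miRNAs with a count, 438 passed filterByExpr (minimum count 10) and entered edgeR 4.0.16 (TMM, all mature counts as library size), whose quasi-likelihood fit gave the p-values, with Benjamini-Hochberg adjustment. Standard errors were derived by dividing the log2 fold change by the root of its F statistic. The fit was tested on simulated data. Shares carry 95% Wilson intervals and counts exact Poisson intervals. Sequences and loci were taken from the files, RefSeq (GRCm38.p6) and GENCODE vM21. Named by rule were all 5 members, miRNAs with a member's seed and the fixed lists. So were the 3 miRNAs nearest to the most abundant member by Euclidean distance of log2 normalised counts plus 1. miR-16-2-3p, miR-148a-3p, miR-325-5p and miR-320-3p were chosen after their values were seen. Members and lists were chosen with earlier results of these data known. With 2 libraries per group the smallest p an exact permutation test allows is 0.333. Alternatives were scaling by RLE, by the upper quartile or by library size alone, DESeq2 1.42.0, edgeR's exactTest at a fold of 2 and an unadjusted p of 0.05 as in the study, other filters, a block for the replicate number, omission of each group's 5 most abundant miRNAs, and each library left out in turn. R 4.3.3, Python 3.11.15, scipy 1.17.1 and matplotlib 3.10.9 were used.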

Additional observations from a re-analysis of the deposited data

How the results depend on the processing

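Under the alternatives, miR-101a-3p and miR-101c could be tested in 12 fits each and miR-101b-3p in 10, and each stayed lower in exosomes and past the threshold in all of them, with adjusted p up to 0.0244 (library size alone). The fitted log2 fold change of miR-101a-3p ran from -4.21 with library size alone to -11.75 without exosome replicate 1, where it has no exosome count and the value depends on the prior count. Leaving out the cell libraries one at a time gave 2 members lower, since miR-101b-3p was then filtered out, against 3 without either exosome library. With at least 10 counts in every library no member was left to test. Across all miRNAs, the higher calls ran from 46 to 115 and the lower calls from 56 to 162 over the single libraries left out. With at least 10 counts in every library there were 37 higher and 40 lower, with no filter 202 lower, and with library size alone 30 lower, where the higher calls were 137. With upper quartile scaling 57.6% of calls were higher. Under TMM the counts at an unchanged level over both exosome libraries were 46.8 for miR-101a-3p, 29.8 for miR-101b-3p, 46.0 for miR-101c, 0.630 for miR-101a-5p and 0.0989 for miR-101b-5p. When the total omitted each group's 5 most abundant miRNAs they were 19.1 for miR-101a-3p and 18.8 for miR-101c. Cell and exosome libraries share only a number. Across the tested miRNAs, the deviations of cell replicate 1 and exosome replicate 1 from their group means had a correlation of 0.167. With 2 libraries per group, replicate 2 repeats this value by construction. With the replicate block 117 miRNAs were higher and 109 lower, all 3 members among the lower. The depth of the exosome libraries limits what can be said of the 5p strands.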
